A study of Mus musculus with 2 samples.

Results

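The transcription factor USF1 was found at the promoters of 7 of the 9 genes of the HOPS and CORVET vesicle tethering group in CH12.LX cells, against 12.6% of 21318 protein-coding genes. The 9 genes were taken by name: Vps11, Vps16, Vps18, Vps33a, Vps33b, Vps39, Vps41, Vps8 and Tgfbrap1. A gene was called bound when the summit of an optimal region, from the authors' thresholded list of 8108 mm10 regions, lay within 1 kb of any annotated 5′ end. With the outermost 5′ end of each gene alone, 6 of the 9 were bound, against 11.2% of all genes. Within 5 kb of any 5′ end or inside the gene, the members with a summit were the same 7, against 22.7% of all genes, and in the mm9 list they were 6, against 25.9%. Binding was measured by ChIP-seq with a USF1 antibody in CH12.LX, an immortalized line of a B-cell lymphoma from a female B10.H-2aH-4bp/Wts mouse, in 1 group of 2 biological replicates and with no other condition. The deposited files are lists of regions, so sequencing depth is unknown, B-cell markers could not be checked, and RNA levels are not measured here.

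HOPS and CORVET are large complexes that capture a vesicle and hold it close to its target membrane before fusion. CORVET acts at early endosomes, and HOPS acts where late endosomes and autophagosomes fuse with lysosomes. Both are built on the same class C core of VPS11, VPS16, VPS18 and VPS33A, to which HOPS adds VPS39 and VPS41, and CORVET adds VPS8 and TGFBRAP1, the mammalian counterpart of yeast Vps3. VPS33B is a relative of VPS33A that pairs with VIPAS39 and is not a standard subunit of either complex. USF1 binds the E-box CACGTG. A longer palindrome around it, GTCACGTGAC, is known as the CLEAR element, through which TFEB and its relatives act on lysosomal genes. The palindrome contains the E-box of USF1, and binding of TFEB was not measured here.

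The E-boxes that lay under the promoter summits are shown first, because the members differed in which E-box they held. Each line gives at most 30 bases, 5′ to 3′ on the strand of the gene, with the E-box in capitals. The stretch of Vps18, which had neither CACGTG nor CACATG at its promoter summit, is centred on that summit and has no capitals. The first 4 stretches are from RefSeq (GRCm38.p6, the build of mm10), and those of Vps8 and Vps18 are from the mm9 genome.
Vps33a: ggatCACGTGaacgtcccgtCACGTGacgc
Vps16: aggcggcctcgtCACGTGaccccgaagggc
Tgfbrap1: cgggcggcggccCACGTGacgggaagcggc
Vps41: ttccgggtatgtCACATGactctcaggctg
Vps8: cctccgcggggtCACGTGtgctggggtccc
Vps18: cgtcataagcacgcgtcacgggggcgggag
The mm10 stretches lie at chr5:123573018-123573047 on the minus strand for Vps33a, chr2:130424290-130424319 on the plus strand for Vps16, chr1:43092470-43092499 on the minus strand for Tgfbrap1 and chr13:18717282-18717311 on the plus strand for Vps41. The mm9 stretches lie at chr16:21423247-21423276 for Vps8 and chr2:119114466-119114495 for Vps18, both on the plus strand. RefSeq promoter stretches were matched for 6 of the 9 members, and those of Vps11, Vps33b and Vps39 were not.

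Among the 4 genes of the shared core, all were bound, and 3 of them strongly. Signal below is the authors' own value for a region, whose scale is not given in the sources used here. It was 565 at Vps11, 487 at Vps16, 171 at Vps18 and 595 at Vps33a in the optimal list. The median over all optimal regions was 72.2, and over the 2543 regions within 1 kb of a gene start it was 118.

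Vps33a encodes the Sec1/Munc18-type subunit that guides SNARE assembly, and it is the gene of the buff coat-colour mutant. Its region at chr5:123572868-123573182 ranked 17 of 8108. Among all protein-coding genes the promoter of Vps33a ranked 18 by its strongest region. The signal in each replicate's own list was 303 in replicate 2, at rank 33 of 44551, and 297 in replicate 1, at rank 14 of 25978. The mean was 299.8 ± 4.40 (SD, n = 2), so the replicates lay close together. The summit lay 8 bp inside the gene, counted from its outermost 5′ end, and 20 bp upstream of an inner RefSeq start. It held 2 copies of CACGTG, 16 bp apart. Their first bases lay 28 and 12 bp upstream of the inner start. The nearest E-box centre lay 5.5 bp upstream of the summit. The copy nearer to the inner start was part of a full GTCACGTGAC. At least 2 copies of CACGTG occurred in 0.748% of 21263 RefSeq promoter stretches of protein-coding genes, bound by USF1 or not.

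Vps11 encodes a scaffold subunit of the core that carries a RING domain. Its region at chr9:44361533-44361826 ranked 78, with a signal of 286 in replicate 2 and 281 in replicate 1, a mean of 283 ± 3.24 (SD, n = 2). The summit lay 6 bp upstream of the start. In mm9 the peak had 1 copy of CACGTG that began at the annotated first base of the gene, and 1 copy of CACATG beside it.

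Vps16 encodes the subunit that holds VPS33A in the complexes. The region at chr2:130424158-130424440 had a signal of 269 in replicate 2 and 221 in replicate 1, with a mean of 245 ± 34.2 (SD, n = 2). Its summit lay 12 bp upstream of the start of Vps16, and 20 bp upstream of a start of Pced1a on the opposite strand. These 2 starts were 32 bp apart, so the region cannot be assigned to either gene alone. A second, weaker region with a signal of 47.6 lay 516 bp upstream of Vps16 and 484 bp downstream of that Pced1a start. The stronger summit held 1 CACGTG, as part of GTCACGTGAC. This 10-base palindrome stood in 0.419% of the 21263 RefSeq promoter stretches, and in 5.34% of the 1666 of those that had any CACGTG. Both shares are over promoters bound by USF1 or not, and no share over bound promoters was taken. Among the 7 RefSeq stretches of the members, those of Vps33a and Vps16 held it.

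Vps18 encodes the other RING-bearing scaffold subunit of the core, and its promoter was bound with neither CACGTG nor CACATG at the summit. The region at chr2:119288595-119288894 had a signal of 80.4 in replicate 2 and 86.1 in replicate 1, a mean of 83.2 ± 4.02 (SD, n = 2). The summit lay 3 bp inside the gene, in exon 1 by the mm9 annotation. Neither CACGTG nor CACATG was found within 100 bp of the mm9 summit, and no CACGTG lay within 1 kb of the mm9 start. Among the 777 genes with a mm9 promoter signal between 100 and 400, a range chosen after the value of Vps18 was seen, 23% had neither E-box within 50 bp of the summit. A second region, at chr2:119287425-119287724, lay 1167 bp upstream of the start and so outside the 1 kb limit. Its signal was 53.8 in replicate 2 and 27.5 in replicate 1. In mm9 a peak 1171 bp upstream of the start had CACATG and no CACGTG.

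**Figure D1:**
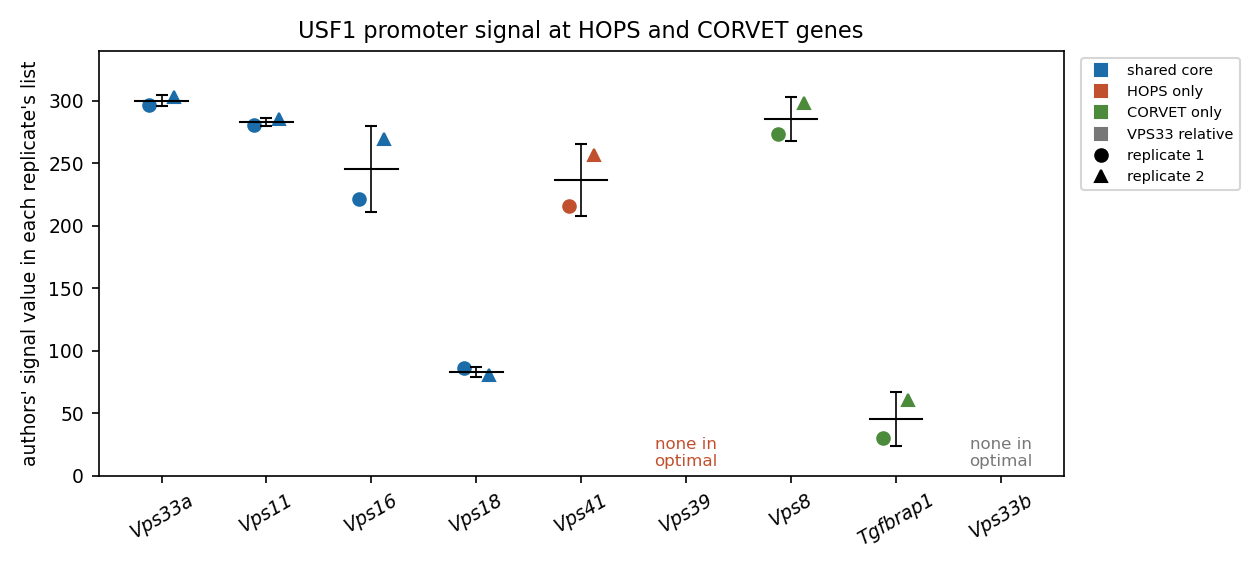
The authors' signal value (linear, no unit given) of the strongest optimal region within 1 kb of a 5′ end of each member is plotted as found in the list of each replicate, with the mean (line) and the SD of 2 replicates (bars). Vps33a, Vps11, Vps16, Vps41 and Vps8 lie at 216 or above in both replicates, Vps18 and Tgfbrap1 lie at 86.1 or below, and Vps39 and Vps33b had no optimal region.

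The HOPS subunits differed from each other. Vps41, whose product connects HOPS to lysosomal and late endosomal membranes, was bound, and Vps39, whose yeast counterpart binds the Rab7 homologue Ypt7, was not. The Vps41 region at chr13:18717161-18717407 had a signal of 257 in replicate 2 and 216 in replicate 1, with a mean of 236 ± 28.9 (SD, n = 2). In the optimal list it had a signal of 473 and ranked 368. The summit lay 5 bp upstream of the start. The E-box there was CACATG, and no CACGTG lay within 1 kb of the mm9 start. The Vps41 peak had a signal of 1343 in mm9, where values run on another scale than in mm10. Of the 492 genes with a mm9 promoter signal of at least 1000, a limit chosen after the values were seen, 92.1% had CACGTG at the summit and 5.08% had CACATG without CACGTG. Vps41 was thus one of the 25 strongly bound genes with the second kind of site.

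No optimal, conservative or mm9 summit lay within 5 kb of a start of Vps39 or inside the gene. In replicate 2 the relaxed list, which holds peaks and background, had 1 region 4813 bp downstream of the start, with a signal of 7.13 and rank 31728. Replicate 1 had none within 5 kb. In mm9 the stretch from 250 bp before to 50 bp after any start of Vps39 had 1 CACATG, 231 bp upstream of the outermost start, and no CACGTG lay within 1 kb of that start.

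Both CORVET subunits were bound, at very different strengths. Vps8, whose yeast counterpart binds the Rab5 homologue Vps21, had a signal of 568 in the optimal list and ranked 70. Its region at chr16:21423041-21423319 had a signal of 298 in replicate 2 and 273 in replicate 1, a mean of 286 ± 17.7 (SD, n = 2). The summit lay 61 bp inside the gene by the RefSeq start, and in exon 1 in mm9. In mm9, where 7 starts are annotated, the nearest start was 6 bp upstream of the summit and 1 CACGTG lay 13.5 bp downstream of it. In mm9, 2 weaker peaks lay in introns of Vps8, with signals of 36.7 and 32.3 near the lowest value of that list, 29.02. They stood 219268 and 55450 bp from the outermost start, and each had CACGTG within 50 bp of the summit. In mm10 the optimal list had no region in Vps8 besides that of the promoter. The relaxed lists were denser on chromosome 16 than on most others, with 27.9 regions per Mb in replicate 2, against a median over chromosomes of 15.8, and 15.9 in replicate 1, against 9.33. Whether this density had a part in the signal at Vps8 was not tested.

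At Tgfbrap1 the site lay at an inner start of the gene. The product, also known as TRAP1 in older work, was named for its binding to TGF-beta receptors and is the VPS3-like subunit of CORVET. The region at chr1:43092329-43092628 lay 6233 bp downstream of the outermost start and 7 bp downstream of another RefSeq start of the gene. The mm9 peak was in an intron of the longer transcript and 23 bp upstream of the start of the shorter one. Its CACGTG began 1 bp before the inner RefSeq start, with C before the core and A after it. The signal was 60.6 in replicate 2 and 30.4 in replicate 1, with a mean of 45.5 ± 21.4 (SD, n = 2). This log2 ratio of 1.00 was higher than that of 94.3% of the 8054 optimal regions found in both replicates. At the outermost start of Tgfbrap1, replicate 1 had no region within 5 kb, and replicate 2 had 2, the stronger with a signal of 8.75, 70 bp upstream.

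Vps33b, the VPS33 relative outside both complexes, was not bound. The relaxed list of replicate 1 had 1 region 229 bp inside the gene, with a signal of 9.04 and rank 16991, below the median of 10.8 of that list. Replicate 2 had no region within 5 kb of the start. Neither CACGTG nor CACATG was found within 1 kb of the outermost mm9 start. For comparison, 27.9% of 22359 protein-coding genes in mm9 had CACGTG within that distance. The relaxed list made from both replicates together had regions within 5 kb of the starts of Vps33b and Vps39. The strongest of these had signals of 13.3 at Vps33b and 12.5 at Vps39. While 90% of optimal regions were above 35.3, the lowest signal in the optimal list was 5.62, below both of these values.

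Most of the bound members lay high among all USF1 promoters. Of the 9 members, 5 had a promoter signal of at least 400, a limit chosen after the values were seen, against 2.58% of all protein-coding genes. Among bound genes alone, 5 of the 7 bound members reached this limit, and 551 of all 2684 bound genes did. The median over the 7 bound members was 487, and over all 2684 bound genes it was 131. By gene, Vps8 ranked 82, Vps11 91, Vps16 320, Vps41 370, Vps18 1175 and Tgfbrap1 1605 of those 2684. The members were chosen with earlier results of these data known, so these counts are descriptions and no p is given.

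**Figure D2:**
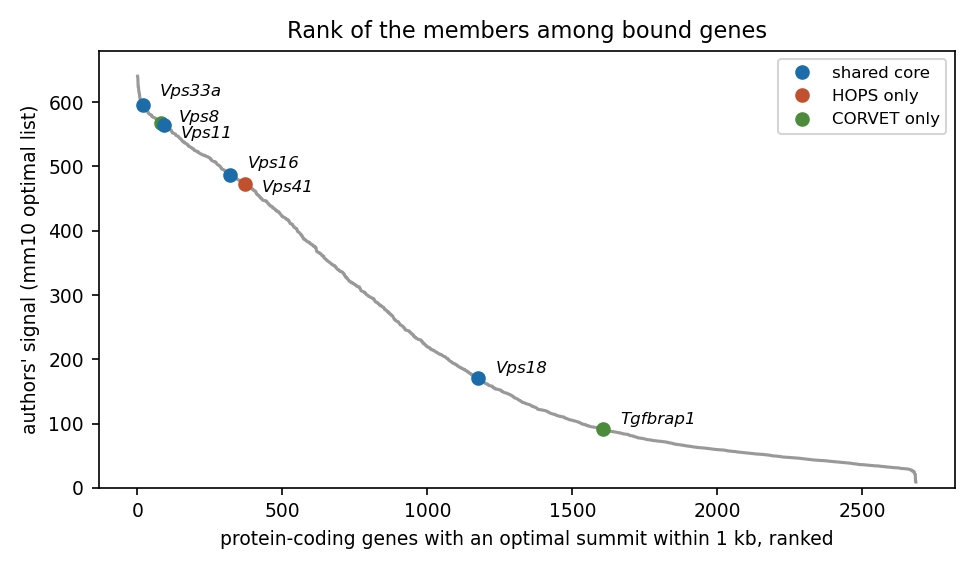
Protein-coding genes with an optimal summit within 1 kb of a 5′ end are ordered from the strongest to the weakest along the x axis, with the authors' signal in the mm10 optimal list (linear) on the y axis; points are the 7 bound members, coloured by complex. Vps33a, Vps8, Vps11, Vps16 and Vps41 lie on the steep left part of the curve, above 400, and Tgfbrap1 lies past its middle, at 90.9.

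The summits sat close to the gene starts. The distance from the strongest promoter summit to the nearest start was 3 to 61 bp over the 7 bound members, with a median of 7 bp. The median was 90 bp over all 2543 optimal promoter regions. These include second and weaker regions of a gene, so the medians are not over like sets. A summit within 100 bp of a start was found at 7 of the 9 members, against 6.65% of all protein-coding genes. Over bound genes alone it was found at all 7 bound members, against 52.8% of the 2684 bound genes. Of these 7, 5 had a signal of at least 400, and no share over genes that strong was taken. Nearness to the start was thus not separated from signal. The summits called in each replicate were 1 to 20 bp apart at these regions, with a median of 7 bp, while the median was 6 bp over the 500 strongest optimal regions, which include 5 of these 7, and 12 bp over the 8054 optimal regions found in both replicates. All 9 optimal regions in reach of the members overlapped a region of each replicate by at least 77.7% of their length and were also in the conservative list of 7356 regions. The optimal list was made from these same relaxed lists, so part of this overlap is built in.

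Of the 7 bound members, 5 held CACGTG at the promoter summit, Vps41 held CACATG alone and Vps18 held neither. In mm9, where all sequences at summits could be read, 6 members had a promoter peak and 4 of them had CACGTG, against 57.6% of 3187 genes with a promoter peak. CACATG without CACGTG was found at 11.5% of those genes and neither at 30.8%. The fifth CACGTG was that of Vps16, read in mm10. Vps16 had no mm9 summit within 5 kb, although its mm9 start has CACGTG 63 bp upstream. Of 481 genes with an optimal signal of at least 400 in mm10 and an entry of the same name in mm9, 31 (6.44%) had no mm9 promoter peak. Why these peaks are missing from the mm9 list was not tested.

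**Figure D3:**
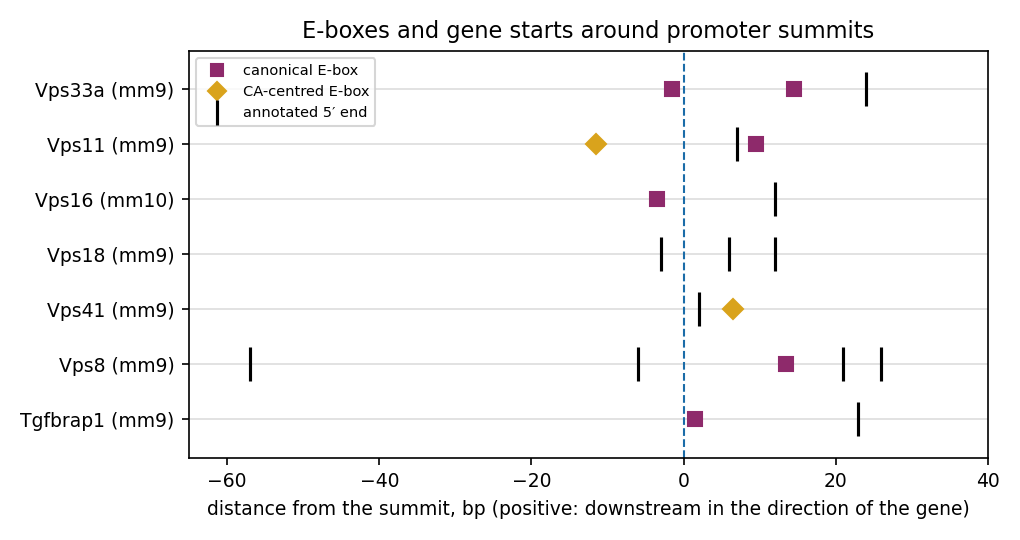
For each bound member, the x axis gives the distance in bp of E-boxes (squares for CACGTG, diamonds for CACATG) and annotated 5′ ends (ticks) from the promoter summit (dashed line), positive in the direction of the gene; Vps16 is drawn in mm10 and the others in mm9, and starts outside the axis are not drawn. Each E-box centre lies within 15 bp of its summit, and Vps18 has starts but neither of these E-boxes.

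Genes that work with HOPS and CORVET were bound in part. Of 32 partner genes, 31 could be matched and 12 were bound (38.7%, against 12.6% of all protein-coding genes), with a median signal of 289. No test of the difference from the members was made. The promoter regions of Rab5b, Snap29 and Stx8 also lay within 1 kb of a start of another gene. Those regions cannot be assigned to the partner gene alone.

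Among GTPases and their regulators, 5 of 12 were bound. The early endosomal GTPase gene Rab5a had a signal of 509, and its paralog Rab5b had 82.5. Arl8b, whose product brings HOPS to lysosomes, had 397, and the late endosomal GTPase gene Rab7 had 301. Mon1a, a subunit of the RAB7 exchange factor, had 66.8. Rab2a, Rab2b, Rab5c, Arl8a, Mon1b, Ccz1 and Rabgef1 had no optimal promoter summit.

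Of the 10 matched SNARE genes, 4 were bound. Stx6, an endosomal and trans-Golgi SNARE, had a signal of 568, and Snap29, which acts in autophagosome fusion, had 421. Stx8 had 192 and Vti1b 69.4, and both encode late endosomal SNAREs. Stx7, Stx12, Stx17, Vamp8, Vti1a and Ykt6 were not bound at the promoter.

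Of 9 adaptor genes, 3 were bound. Uvrag, whose product binds the class C core, had 506. Plekhm1, a RAB7 and HOPS adaptor gene, had 276, and Rubcn, which encodes an inhibitor that binds UVRAG, had 163. Eea1, Plekhm2, Rbsn, Rilp, Vps45 and Vipas39, the last of which encodes the partner of VPS33B, were not bound. CACGTG lay at the summit of 6 of the 12 bound partners in mm9, namely Rab5a, Stx6, Uvrag, Plekhm1, Rubcn and Mon1a. The other 6 had neither E-box. Over all 3187 genes with a mm9 promoter peak, 57.6% had CACGTG and 30.8% had neither.

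Of 40 genes of other tethering, sorting and VPS complexes, 7 were bound (17.5%, against 12.6% of all protein-coding genes), with a median signal of 339.9. The exocyst, which tethers vesicles at the plasma membrane, had 1 of 8, Exoc1 at 546. The COG complex of the Golgi had 0 of 8. GARP and EARP, which tether endosome-derived vesicles, had 1 of 5, the EARP subunit gene Vps50 at 557. Retromer, which sorts cargo out of endosomes, had 2 of 4, Vps26a at 413 and Vps35 at 218. ESCRT, which sorts cargo into inner vesicles of endosomes, had 3 of 15, Vps37b at 339.9, Vps37c at 272 and Mvb12a at 86.1. The regions of Vps50 and Vps35 also lay within 1 kb of a start of another gene, so they cannot be assigned to Vps50 or Vps35 alone.

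**Figure D4:**
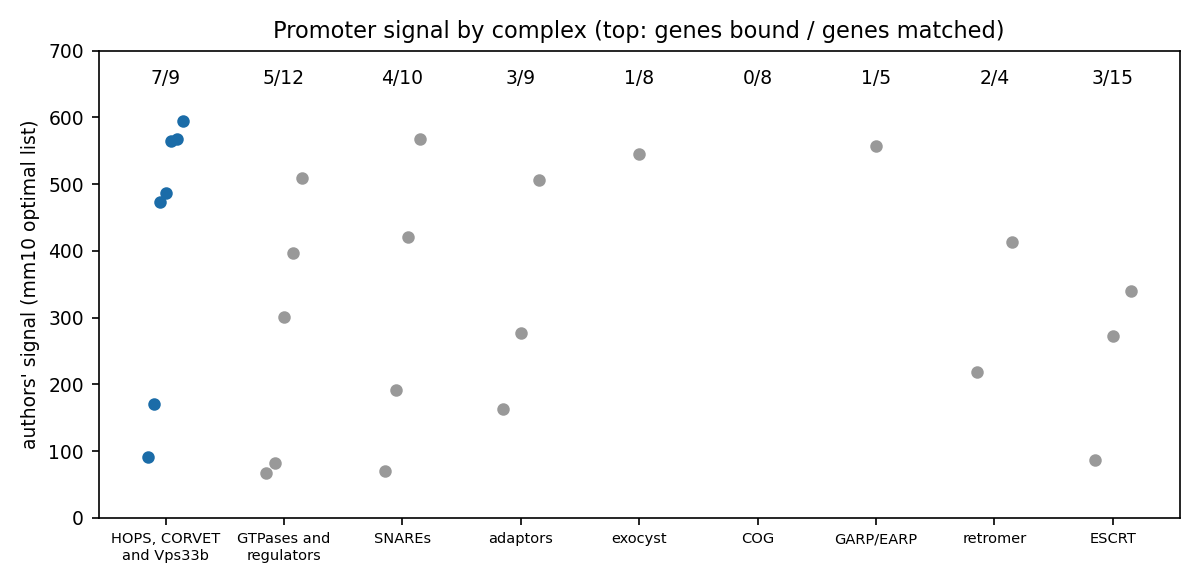
Each point is a gene with an optimal summit within 1 kb of a 5′ end, placed by complex or partner class (x axis) and by the authors' signal in the mm10 optimal list (y axis, linear); the numbers above give genes bound over genes matched. The members have 7 of 9 with 5 above 400, and no other class has more than 2 above 400.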

How the data were processed

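The authors deposited narrowPeak lists for 2 biological replicates of USF1 ChIP-seq. Per the deposited readme texts, each replicate has a relaxed mm10 list (25978 regions in replicate 1, 44551 in replicate 2), a further relaxed list covers both together (300000), optimal (8108) and conservative (7356) lists were thresholded by IDR from these, and a mm9 list (10624) came from both replicates' alignments. The aligner, the peak caller and its settings are each not given in the sources used here. Signal is the deposited column 7, used as the authors gave it and compared only within a build. Lists and replicates were not rescaled, so a mean over replicates assumes that their signal is on one scale.

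The summit is the start plus column 10. Coordinates are 1-based. In mm10, 5′ ends came from RefSeq (GRCm38.p6), with strand from its promoter table for 17274 genes and from Gencode vM1 for 4044. In mm9, sequence came from NCBIM37 and 5′ ends from every protein-coding transcript of vM1. E-boxes were searched on both strands within 50 bp of the summit, and motifs in promoters from 250 bp before to 50 bp after a start. An overlap of 1 bp counted as shared. The distance given to a gene start is negative upstream. Steps were tested on simulated data and run with Python 3.11.15, pandas 2.3.3 and numpy 2.4.6.

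The members and lists were chosen with earlier results of these data known, so counts are set beside the share over all genes, and no test was run. The genes named are all members, all bound genes of the partner and other lists, and genes whose start lies within 1 kb of a member's promoter summit; list genes that were not bound are named without values, except 4 with weak mm9 peaks, named after their values were seen. With 1 group of 2 replicates, SDs measure the spread between these libraries only.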

Additional observations from a re-analysis of the deposited data

How the results depend on the processing

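The count of 7 bound members held within 500 bp and within 5 kb of a start, in the conservative list, in the strongest 50% of optimal regions and at 50% overlap with each replicate. It was 7 without replicate 1 and 7 without replicate 2, where the 8108 strongest regions of the remaining replicate were used. It was 6 in the mm9 list, where Vps16 was missing, and 6 with the outermost start only, where Tgfbrap1 was missing; this last setting was chosen after seeing the data. The count of members with any summit in reach was 7, and 6 in mm9. The count of bound partners was 11 to 14 over all settings, and 12 to 13 when a replicate was left out. The count of bound genes of the other complexes was 7, 8 or 9 in mm10, with 8 to 9 when a replicate was left out, and 11 in mm9, where Cog2, Cog5, Chmp2a and Exoc4 had peaks with signals of 29.5 to 37.0. The count of members with CACGTG at the mm9 promoter summit was 4 with windows of 25, 50 and 100 bp, at 500 bp from a start and in the strongest 50% of peaks. The median signal over the 7 bound members was 245 as a mean of both replicates, 221 without replicate 2 and 269 without replicate 1. No paired analysis was possible because there is only 1 group. Depth is unknown, so a missing region at Vps39 or Vps33b shows only that none passed the authors' threshold.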
